A study of Heterocephalus glaber and Mus musculus with 9 samples.

Results

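The genes described here are the molecular chaperones and heat shock genes of the spleen. They were taken from the table by symbol, case ignored: names that start with Hsp, Dnaj, Hsf and a digit, Bag and a digit, or Cct and a digit, with Tcp1 and Ahsa1 added where listed and the basement membrane proteoglycan Hspg2 left out. Of 12946 genes in the table, 62 met this rule. The naming is not perfect, since Hsf2bp is a partner of a heat shock factor and Hspb11 a transport protein of cilia. Several central chaperones, among them Hsp90aa1, Hspa8, Hspa1a, Hspd1, Hsf2, Tcp1 and Ahsa1, are not analysed here.

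Spleen RNA was sequenced from 9 animals, with 1 library each. Mice were wild-type C57Bl/6N males aged 2 months and kept at 22 °C (n = 3). Naked mole-rats (NM-Rs), which are long-lived subterranean rodents, were kept at 29 °C and formed 2 cohorts by spleen size: ssNM-Rs with small spleens (spleens 2, 3 and 6, males of 30, 26 and 23 months) and lsNM-Rs with enlarged spleens (spleens 1, 4 and 5, aged 24, 29 and 23 months, of which lsNM-R 4 was the only female). No animal was heat shocked or otherwise treated according to the sources used here. Mice were killed by cervical dislocation and NM-Rs by decapitation. Species, age, housing temperature, manner of death, reference genome and annotation changed together, so their parts in any difference between mouse and NM-R cannot be told apart.

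Chaperones bind unfolded protein and help it to fold, assemble or be degraded. HSP70 proteins work in cycles driven by ATP, which J-domain proteins (the Dnaj genes) start and nucleotide exchange factors (HSP110 and BAG proteins) end. HSP90 finishes the folding of kinases and receptors, the chaperonin ring folds actin and tubulin, small heat shock proteins hold unfolded protein without ATP, and heat shock factors switch on many of these genes under stress. In the spleen, plasma cells load the endoplasmic reticulum (ER) with secreted antibody, and erythroblasts make large amounts of haemoglobin.

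Some promoters of the mouse genes hold the short motifs through which such responses are known to act, and they are shown because the genes that carry them are described below. In the 250 bases before each coding transcript start (mm9), the ER stress response element (CCAAT, any 9 bases, then CCACG), searched on both strands, was found in 2 of the 62 genes, Hsp90b1 and Hspa5, against 0.146% of the 10309 genes of the table with such a window. A heat shock element of 3 units (GAA, TTC and GAA, each separated by any 2 bases), also on both strands, was found in 1 of 62, Hsph1, against 0.621% of the same genes. The stretches shown with the Hsp90b1 motifs lie at chr10:86168258-86168316 and chr10:86168363-86168421 on the minus strand, outside annotated exons. The Hspa5 stretch lies at chr2:34627540-34627568 on the plus strand and the Hsph1 stretch at chr5:150438855-150438883 on the minus strand, each inside an exon of another transcript of the same gene. Capitals mark the motif, in the direction of the gene. A match describes the letters in the window and is not evidence of a factor's binding.
Hsp90b1, nearer the start: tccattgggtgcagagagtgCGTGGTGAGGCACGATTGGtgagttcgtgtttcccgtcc
Hsp90b1, further from the start: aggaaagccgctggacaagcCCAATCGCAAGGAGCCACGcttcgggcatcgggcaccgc
Hspa5: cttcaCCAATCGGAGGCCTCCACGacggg
Hsph1: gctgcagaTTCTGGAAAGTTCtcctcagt

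The values are normalized counts, in which the reads of a gene are scaled by the size factor of the library but not by the length of the gene. Levels are therefore compared between spleens for 1 gene and never between genes. Libraries held between 7815326 and 18387599 reads. Among NM-Rs, ssNM-R 2, ssNM-R 3 and lsNM-R 1 were shallow (7815326 to 8985705). The libraries of ssNM-R 6, lsNM-R 4 and lsNM-R 5 were deep (16883689 to 18387599). Spleen markers were present in both species, but their levels were far apart: the 9 B cell markers in the table summed to between 64283 and 65739 in mice and to between 3383 and 8562 in NM-Rs, and all 9 were lower in NM-Rs. The 9 erythroid markers were all higher in NM-Rs, with sums of 126685 to 193792 against 23413 to 66073. The 6 granulocyte markers and the 4 cell cycle genes were all higher as well. In bulk tissue, fewer cells of a type and less RNA per cell cannot be told apart, and the part of cell composition in the results below was not tested. Mouse 1 and lsNM-R 4 stood apart in several of the 62 genes, as described at the end. Mouse 1 had the lowest level of all 9 erythroid markers (sum 23413) and all 4 cell cycle genes among mice. Among NM-Rs, lsNM-R 4 had the highest level of 6 of the 9 erythroid markers and of 1 of the 4 cell cycle genes, but ssNM-R 2 had the higher sums (193792 against 183727 and 19590 against 18856). The overall counts of genes higher and lower in NM-Rs are also given below without mouse 1, without lsNM-R 4 and without both.

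Between NM-R and mouse spleens, 25 of the 62 genes were higher in NM-Rs and 20 were lower (limma, adjusted p under 0.05 over all genes). Over the whole table, 39.7% of genes were higher and 38.8% lower, and the shares of the 62 genes lie near these. The 45 calls make up 72.6% of the genes, against 78.5% of the table. The changes were smaller than those of the table at the median. The median absolute log2 fold change was 0.61 for the chaperone genes and 1.10 for all genes, and 20 of 62 genes (32.3%) changed by at least 1 on the log2 scale against 53.5% of all genes. Where the mean reached 50 normalized counts, the medians were 0.58 for 52 chaperone genes and 0.94 for 10004 genes. The median signed change was 0.19 against 0.01. For 38 genes (61.3%, against 72.6% of all genes) no NM-R spleen overlapped a mouse spleen. Each cohort gave similar counts against the same 3 mice: 22 higher and 19 lower in ssNM-Rs (background 38.0% and 37.5%), and 24 higher and 20 lower in lsNM-Rs (background 38.1% and 37.0%). Without mouse 1 the NM-R counts were 19 higher and 21 lower, without lsNM-R 4 they were 22 and 20, and without both 19 and 21. Together, the 62 genes took 0.681% to 0.740% of the normalized counts of each mouse and 0.770% to 0.872% of each NM-R. Their sums were 76391 to 85058 in mice and 90595 to 103828 in NM-Rs. In such a sum the genes with the highest counts, above all Hsp90ab1 and Hsp90b1, weigh most. The families did not all follow this sum. Hsp90ab1 and Hsp90b1 summed to between 28519.5 and 30999 in mice and to between 40130.3 and 43926 in NM-Rs, while the 20 Dnajc genes summed to between 16082 and 16183 in mice and to between 11764 and 12411 in NM-Rs.

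**Figure D1:**
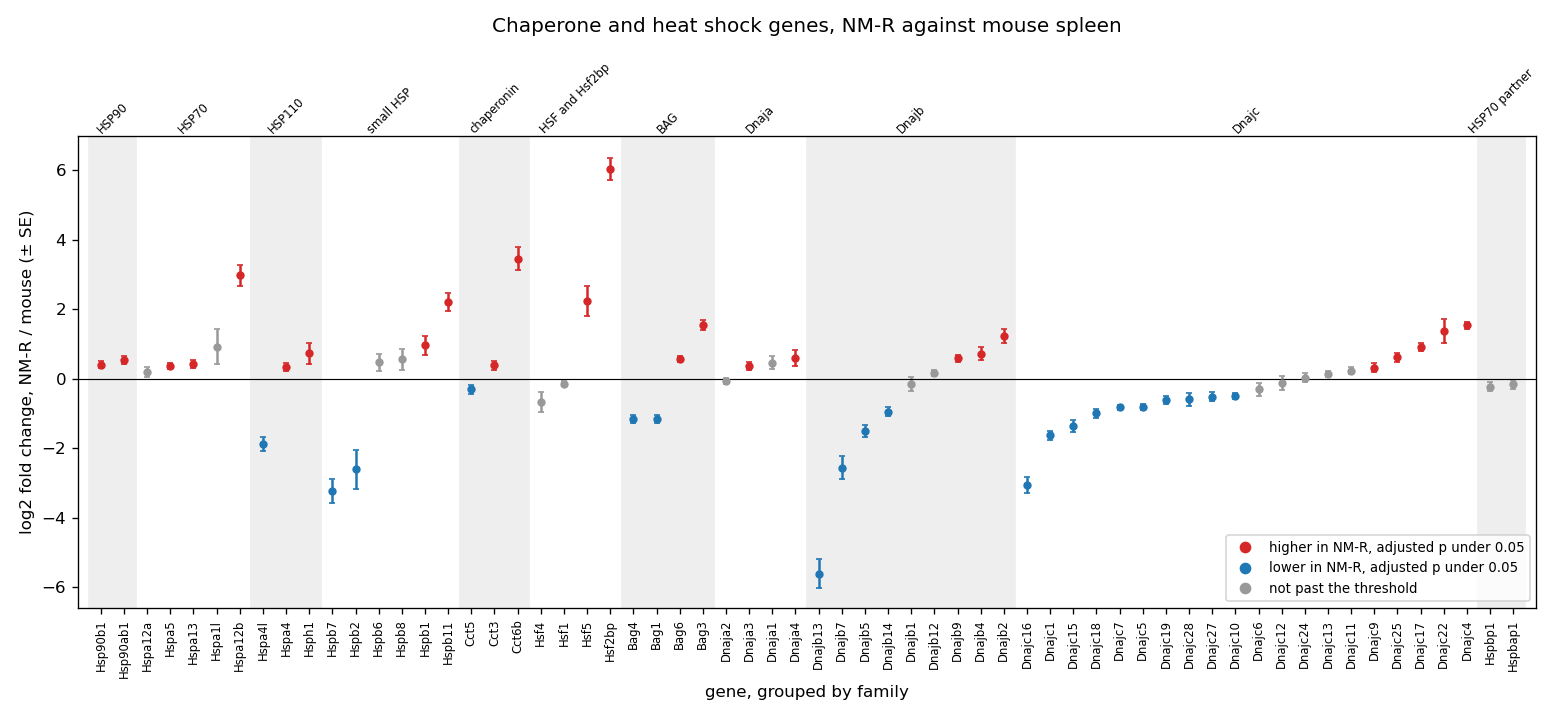
Log2 fold change of NM-R (n = 6) over mouse (n = 3) for each of the 62 genes, with its standard error, grouped by family on the horizontal axis; red and blue points passed an adjusted p of 0.05 and grey points did not. The 25 higher and 20 lower genes lie on both sides of 0, from 6.04 for Hsf2bp to -5.61 for Dnajb13. The group labelled HSP70 partner holds Hspbp1 and Hspbap1, and the label applies to Hspbp1 only.

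Hsp90ab1 and Hsp90b1, the HSP90 genes that met the naming rule, were higher in NM-Rs. Hsp90ab1, the cytosolic HSP90 that cells express without stress, measured 18812, 20355 and 21205 in mice 1 to 3, 30508, 28709 and 27976 in ssNM-R 2, 3 and 6, and 29035, 31301 and 27162 in lsNM-R 1, 4 and 5. All NM-R spleens lay above all mouse spleens, with a log2 fold change of 0.53 ± 0.12 (SE), adjusted p = 0.00237. Hsp90b1, the HSP90 of the ER, measured 9707, 9327 and 9794 in mice 1 to 3, 11829, 13935 and 13799.8 in ssNM-R 2, 3 and 6, and 11361, 12624 and 12968 in lsNM-R 1, 4 and 5. Again the species did not overlap, and the log2 fold change was 0.40 ± 0.10 (SE), adjusted p = 0.00438. The mitochondrial HSP90, Trap1, which the rule on symbols does not take in, was lower (-0.31, adjusted p = 0.00945). Near-identical stretches of Hsp90ab1 (1) and Hsp90b1 (2) lie elsewhere in the mouse genome, among which mouse reads could be split. Exons of Hsp90b1 also overlap other annotated mouse genes, some of them on the same strand. The part of these overlaps in its values was not tested.

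The 5 HSP70 genes of the table included 3 that were higher in NM-Rs and 0 that were lower. This and each family count that follows stands beside 39.7% of all genes higher and 38.8% lower, and no family was tested against these shares. Hspa5, the main HSP70 of the ER (BiP), measured 6464, 6982 and 7425 in mice 1 to 3, 8579, 8646 and 9414 in ssNM-R 2, 3 and 6, and 8401, 8842 and 10004 in lsNM-R 1, 4 and 5. Every NM-R spleen was above every mouse, and the log2 fold change was 0.37 ± 0.10 (SE), adjusted p = 0.00581. Under quantile normalization it was 0.20 (adjusted p = 0.0928) and the call was lost. In a list of 18 ER folding and stress genes, of which 13 are analysed here, 3 were higher (Atf4, P4hb and Pdia6) and 4 lower (Atf6, Ern1, Sdf2l1 and Manf), beside 39.7% higher and 38.8% lower over all genes. Hspa13, a microsomal HSP70, was higher by 0.42 ± 0.11 (SE), adjusted p = 0.00637, with 503 to 712 in NM-Rs against 401 to 486 in mice. Its lowest NM-R lay just above its highest mouse.

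Hspa12b, an atypical HSP70 known from endothelial cells, showed the largest change of the HSP70 genes. It measured 74.3, 63 and 62.9 in mice 1 to 3, 402, 919 and 616 in ssNM-R 2, 3 and 6, and 771, 399 and 322 in lsNM-R 1, 4 and 5. The lowest NM-R lay far above the highest mouse, and the ratio of means was 8.56 ± 3.66 (SD, 6 NM-Rs and 3 mice), a log2 fold change of 2.98 ± 0.30 (SE), adjusted p = 8.12e-06. The NM-R spleens themselves varied widely, and the cohorts overlapped. Its relative Hspa12a did not pass the test (log2 fold change 0.20 ± 0.15 (SE), adjusted p = 0.245). Hspa1l, a form known from testis, was near the floor with 6 reads in mice and 27 in NM-Rs in all, and was not called (0.92 ± 0.51 (SE), adjusted p = 0.121).

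**Figure D2:**
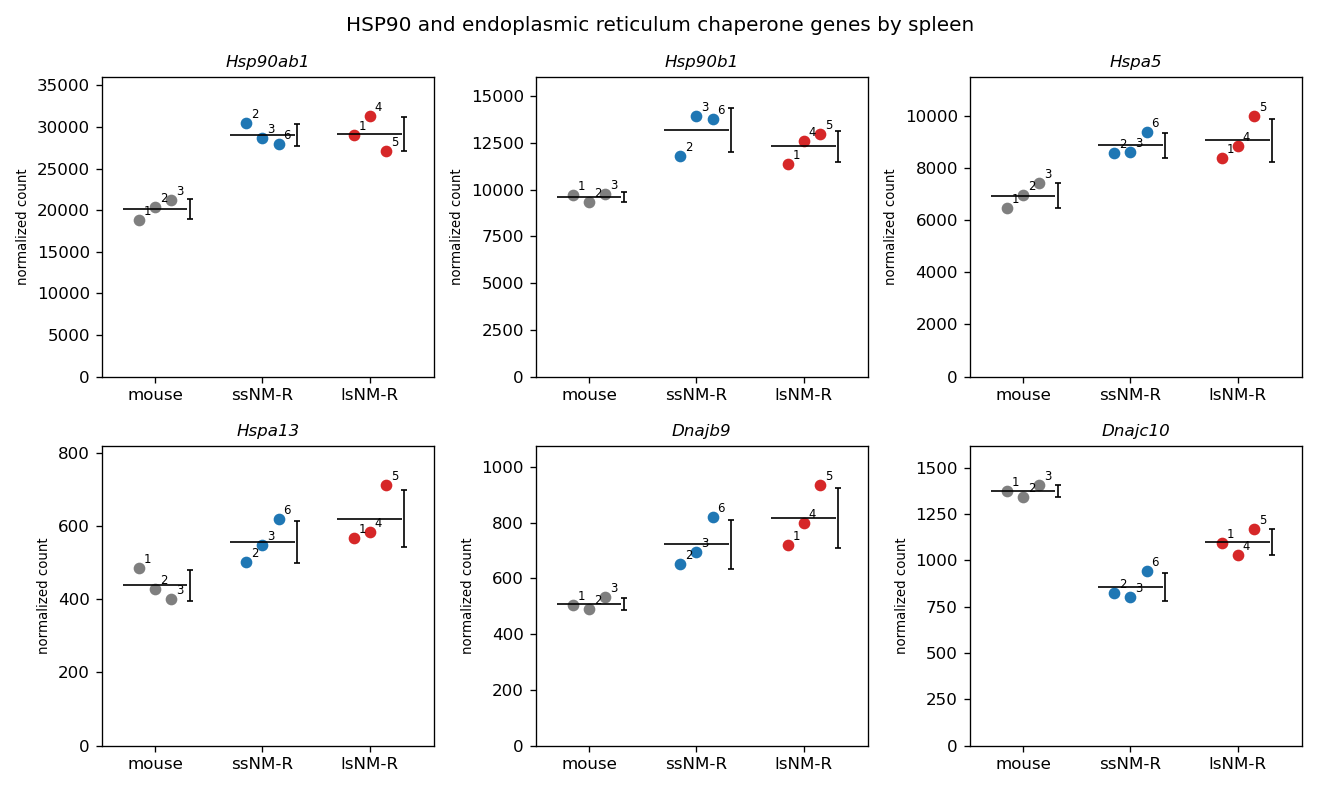
Normalized counts in each spleen for 6 genes of the HSP90 group and of the ER; numbers name the spleens, horizontal lines are group means and bars are the SD (n = 3 per group). NM-R spleens lie above the mice for Hsp90ab1, Hsp90b1, Hspa5, Hspa13 and Dnajb9 and below them for Dnajc10, for which the lsNM-Rs lie between the ssNM-Rs and the mice.

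The 3 HSP110 genes, exchange factors of HSP70, went in both directions. Hspa4 was higher in NM-Rs, with 3318 to 4789 in NM-Rs against 2935 to 3206 in mice and a log2 fold change of 0.33 ± 0.11 (SE), adjusted p = 0.0212. Hspa4l was lower, and measured 649, 755 and 793 in mice 1 to 3, 224, 162 and 129.5 in ssNM-R 2, 3 and 6, and 182, 312 and 223 in lsNM-R 1, 4 and 5. All NM-Rs were below all mice by a wide gap, and the log2 fold change was -1.88 ± 0.20 (SE), adjusted p = 1.37e-05. Hsph1, which carries the heat shock element shown above, measured 619, 1013 and 1103 in mice 1 to 3, 1503, 1255 and 1113 in ssNM-R 2, 3 and 6, and 1023, 2884 and 1602 in lsNM-R 1, 4 and 5. lsNM-R 4 stood far above the rest, mouse 1 was the lowest, and the species overlapped, since lsNM-R 1 lay below mouse 3. The log2 fold change was 0.73 ± 0.30 (SE), adjusted p = 0.0449. It was 0.53 without lsNM-R 4 (adjusted p = 0.0552), 0.47 without mouse 1 (adjusted p = 0.218) and 0.28 without both (adjusted p = 0.231). The size of the change thus moved with these spleens. The call was also lost without mouse 2 (0.83), lsNM-R 5 (0.74), ssNM-R 3 (0.74) or ssNM-R 2 (0.67), where the change stayed near the full value with fewer spleens in the fit. The call of Hspa4 was likewise lost without mouse 1 (0.29, adjusted p = 0.0766) or mouse 2 (0.35, adjusted p = 0.0527).

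Of the 6 genes with a small heat shock name, 2 were higher, 2 lower and 2 not called (39.7% higher and 38.8% lower over all genes). Hspb1 (HSP27), an actin-protecting chaperone, measured 206, 267 and 199 in mice 1 to 3, 379, 369 and 729.9 in ssNM-R 2, 3 and 6, and 477, 257 and 535 in lsNM-R 1, 4 and 5. ssNM-R 6 and lsNM-R 5 were highest and lsNM-R 4 lay below mouse 2, so the species overlapped, and the log2 fold change was 0.96 ± 0.28 (SE), adjusted p = 0.00939. Hspb6 and Hspb8, known from smooth muscle and as a partner of Bag3, were not called (0.47 ± 0.25 (SE), adjusted p = 0.109 and 0.56 ± 0.29 (SE), adjusted p = 0.107). Hspb8 passed without lsNM-R 1 (adjusted p = 0.0214). Both were also highest in ssNM-R 6 and next in lsNM-R 5, at 257.8 and 193 for Hspb6 and at 130.2 and 129 for Hspb8. The 7 smooth muscle markers summed highest in the same spleens, 34899 and 28524, against 16423 to 23873 in the other NM-Rs and 6447 to 8466 in mice. The 14 immediate early genes (14192 and 16463, against 7861 to 11572 in the other NM-Rs) and the 3 liver markers (2446 and 758, against 79.3 to 317) were also highest there. The part of these lists in the values was not tested.

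Hspb11, named as a small heat shock protein but known as an intraflagellar transport protein, measured 65.2, 80.4 and 75.5 in mice 1 to 3, 615, 263 and 274 in ssNM-R 2, 3 and 6, and 343, 352 and 302 in lsNM-R 1, 4 and 5. ssNM-R 2 stood above the others and no NM-R overlapped a mouse, with a log2 fold change of 2.21 ± 0.25 (SE), adjusted p = 1.88e-05. Hspb7, known from heart muscle, measured 122, 135 and 103 in mice 1 to 3, 16.4, 10.5 and 24 in ssNM-R 2, 3 and 6, and 7.06, 5.64 and 15.7 in lsNM-R 1, 4 and 5. It was lower in every NM-R than in any mouse (-3.23 ± 0.35 (SE), adjusted p = 1.25e-05). Hspb2, a muscle gene, was lower too (-2.61 ± 0.56 (SE), adjusted p = 0.0016), with 33 reads in 3 mice and 8 in 6 NM-Rs and a mouse to NM-R ratio of 9.63 (95% exact interval 4.36 to 24.1, counting error only).

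The chaperonin ring was represented by Cct3, Cct5 and Cct6b. The ring subunits Cct3 and Cct5 moved in opposite directions: Cct3 by 0.39 ± 0.13 (SE), adjusted p = 0.0169 and Cct5 by -0.31 ± 0.12 (SE), adjusted p = 0.0327. Both calls lay close to the threshold. That of Cct3 was lost without mouse 1 (0.31, adjusted p = 0.0803). That of Cct5 was lost without any one of lsNM-R 1, lsNM-R 5, mouse 2, mouse 3, ssNM-R 3 and ssNM-R 6, where the change was between -0.31 and -0.25 and adjusted p between 0.0513 and 0.131. Cct6b, a subunit form known from testis, measured 4.01, 5.43 and 2.1 in mice 1 to 3, 57.4, 40.5 and 24 in ssNM-R 2, 3 and 6, and 73.4, 61.3 and 60.8 in lsNM-R 1, 4 and 5. Every NM-R spleen was above every mouse, with a log2 fold change of 3.46 ± 0.33 (SE), adjusted p = 4.9e-06. Of the subunits of prefoldin, which delivers actin and tubulin to the ring, Pfdn6 was higher, Pfdn1 lower and Pfdn2 not called. The prefoldin-like or phosducin-like Uri1, Pdrg1 and Pdcl3 were lower, so that 1 of 6 listed genes was higher and 4 lower, beside 39.7% and 38.8% of all genes.

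Of the heat shock factor names, the stress-responsive master factor Hsf1 measured 845, 901 and 939 in mice 1 to 3, 853, 879.8 and 825 in ssNM-R 2, 3 and 6, and 806, 793 and 729 in lsNM-R 1, 4 and 5. The species overlapped and the change did not pass the test (-0.14 ± 0.08 (SE), adjusted p = 0.127), except with each spleen scaled to the same total (-0.19, adjusted p = 0.0349). Hsf4, a factor known from the lens, was not called (-0.67 ± 0.28 (SE), adjusted p = 0.0506). It passed under several alternatives, among them without lsNM-R 5 (adjusted p = 0.0096) or mouse 3 (0.0418) and under quantile normalization (0.0443). Against mice, Hsf4 was lower in lsNM-Rs (-0.99, adjusted p = 0.0188) and not called in ssNM-Rs (-0.35, adjusted p = 0.349). The difference between the cohorts was not called (adjusted p = 0.596). Hsf5, known from the male germ line, was higher (2.23 ± 0.44 (SE), adjusted p = 0.000926) on few reads, 4 in mice and 57 in NM-Rs.

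Hsf2bp, which binds HSF2 and takes part in meiotic recombination, had the largest fitted change of the 62 genes on the log2(normalized count + 1) scale, on which the added 1 weighs on genes with so few reads. It measured 2.01, 1.09 and 0 in mice 1 to 3, 107, 117 and 124 in ssNM-R 2, 3 and 6, and 131, 118 and 124 in lsNM-R 1, 4 and 5. Mice together gave 3 reads and NM-Rs 811, and the NM-R to mouse ratio was 115.8 (95% exact interval 39.5 to 562.7, counting error only), with a log2 fold change of 6.04 ± 0.32 (SE), adjusted p = 8.58e-08. The NM-R spleens were close to each other and the groups did not overlap. The ratio from reads has an interval that overlaps that of Dnajb13 below, so the order of these 2 genes is not settled.

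**Figure D3:**
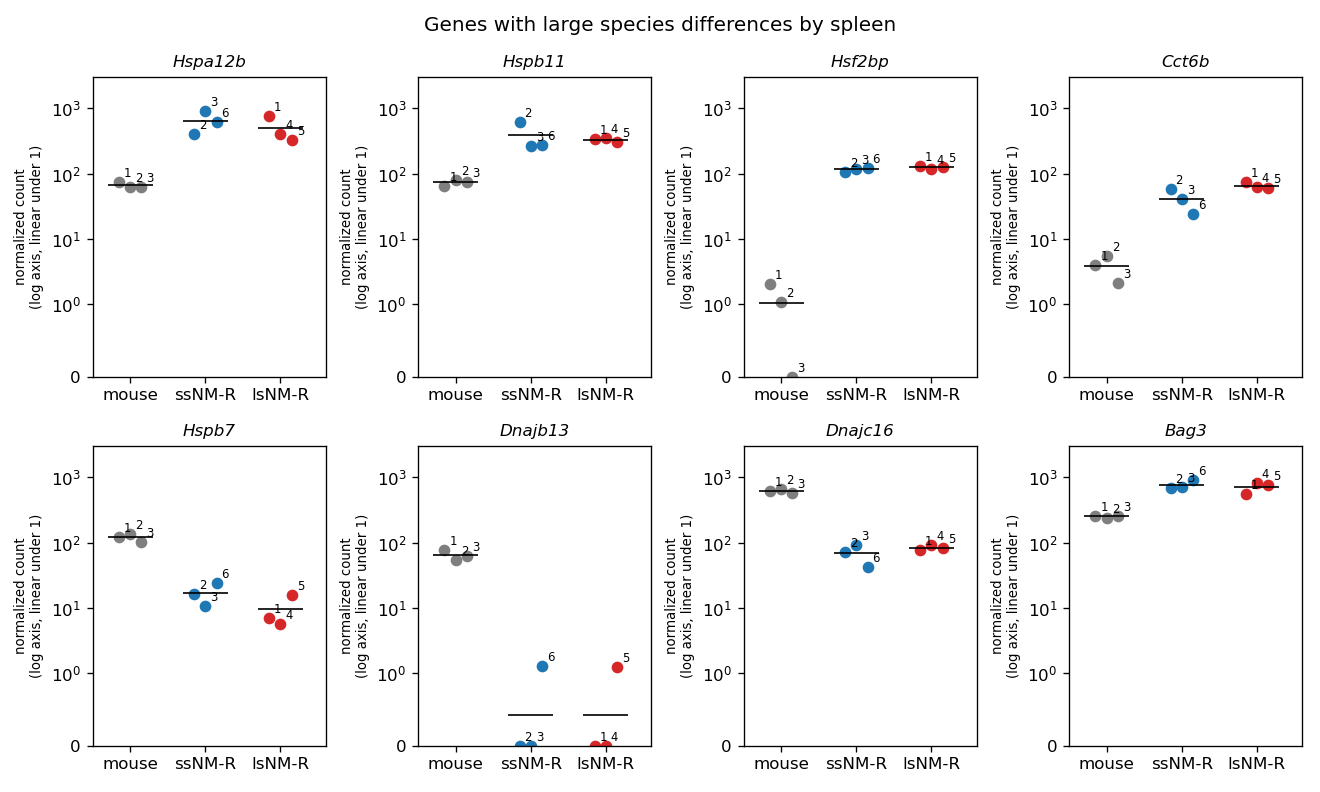
Normalized counts in each spleen, on an axis that is logarithmic above 1 and linear below, for 8 genes with large differences between the species; numbers name the spleens and lines are arithmetic group means (n = 3). No NM-R overlaps a mouse in any panel, with Hsf2bp at 107 to 131 in NM-Rs against 0 to 2.01 in mice.

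All 4 BAG genes, whose proteins release substrate from HSP70, were called, in both directions, where 78.5% of all genes were called. Bag3, which works with Hspb8 in autophagy of misfolded protein, measured 257, 240.2 and 257 in mice 1 to 3, 691, 713 and 894 in ssNM-R 2, 3 and 6, and 547, 822 and 776 in lsNM-R 1, 4 and 5. Every NM-R was above every mouse (1.54 ± 0.14 (SE), adjusted p = 4.35e-06). Bag6, which guards membrane proteins before insertion, was higher by 0.57 ± 0.09 (SE), adjusted p = 0.000259. Bag1, an anti-apoptotic exchange factor, measured 847, 1057 and 1212 in mice 1 to 3, 477, 396 and 437 in ssNM-R 2, 3 and 6, and 453, 499.9 and 517 in lsNM-R 1, 4 and 5. It was lower in every NM-R (-1.15 ± 0.12 (SE), adjusted p = 1.13e-05), as was Bag4 (-1.16 ± 0.11 (SE), adjusted p = 3.95e-06). The HSP70-binding protein Hspbp1 was not called (-0.24 ± 0.13 (SE), adjusted p = 0.119), but passed the test without mouse 1 (-0.39, adjusted p = 0.0129). Hspbap1, named for its association with Hspb1, was not called either (-0.16 ± 0.14 (SE), adjusted p = 0.307).

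Among the 4 Dnaja genes, cytosolic and mitochondrial partners of HSP70, 2 were higher and 0 lower (39.7% and 38.8% over all genes). Dnaja4 changed by 0.60 ± 0.23 (SE), adjusted p = 0.0368 and the mitochondrial Dnaja3 by 0.36 ± 0.12 (SE), adjusted p = 0.0162. Without mouse 1 they were 0.35 and 0.27 and both calls were lost (adjusted p = 0.2 and 0.0797). Without mouse 1 and lsNM-R 4 they were 0.232 and 0.234 (adjusted p = 0.277 and 0.128). Without mouse 2 they were 0.66 and 0.30 (adjusted p = 0.0648 and 0.0801). The call of Dnaja4 was also lost without lsNM-R 4, ssNM-R 2 or ssNM-R 3, where the change was 0.49, 0.52 and 0.61 (adjusted p = 0.0673, 0.0695 and 0.0554). Dnaja1, a major cytosolic partner of HSP70, measured 1332, 1753 and 1827 in mice 1 to 3, 1987, 1889 and 2024 in ssNM-R 2, 3 and 6, and 1739, 3509 and 2704 in lsNM-R 1, 4 and 5. lsNM-R 4 and lsNM-R 5 were highest and mouse 1 lowest, and the change lay at the threshold without passing it (0.46 ± 0.19 (SE), adjusted p = 0.05). DESeq2 and edgeR called it (adjusted p = 0.0261 and 0.035), and so did limma without lsNM-R 1 (adjusted p = 0.00268). The mouse genome holds 4 near-identical copies of Dnaja1 elsewhere (at least 100 bases at 95% identity), among which mouse reads could be split. Dnaja2 was not called (-0.06 ± 0.08 (SE), adjusted p = 0.486).

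Of the 9 Dnajb genes, 3 were higher, 4 lower and 2 not called, again near the 39.7% and 38.8% of all genes. Dnajb2 (827 to 1069.7 in NM-Rs against 263 to 524 in mice, adjusted p = 0.000274), Dnajb4 (0.72 ± 0.19 (SE), adjusted p = 0.00644) and the ER-resident Dnajb9 (0.59 ± 0.11 (SE), adjusted p = 0.000641) were higher. Dnajb1, the classical HSP40 that HSF1 induces under heat, measured 699, 1135 and 1251 in mice 1 to 3, 841, 878 and 832 in ssNM-R 2, 3 and 6, and 805, 1281 and 847 in lsNM-R 1, 4 and 5. Mouse 2, mouse 3 and lsNM-R 4 were high, mouse 1 was the lowest of all 9, and the change was not called (-0.15 ± 0.20 (SE), adjusted p = 0.514). Without mouse 1 and lsNM-R 4 it was -0.51 (adjusted p = 0.00146), and without mouse 3 it was 0.0169. Dnajb5 (-1.50 ± 0.17 (SE), adjusted p = 1.79e-05) and Dnajb14 of the ER membrane (-0.95 ± 0.13 (SE), adjusted p = 6.37e-05) were lower, the latter with 21 near-identical stretches elsewhere in the mouse genome. Dnajb9, Dnajc9, Dnajc17, Dnajc19 and Hspb1 have 1 each. The part of such copies in the values was not tested, and copies in the NM-R genome were not analysed here.

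Dnajb13, a protein of sperm flagella and cilia, measured 76.3, 53.3 and 61.9 in mice 1 to 3, 0, 0 and 1.26 in ssNM-R 2, 3 and 6, and 0, 0 and 1.25 in lsNM-R 1, 4 and 5. Mice together gave 184 reads and NM-Rs 4, a mouse to NM-R ratio of 107 (95% exact interval 41.2 to 398.3, counting error only). Dnajb7 had 16 reads in mice and 1 in NM-Rs.

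The 20 Dnajc genes, J-domain proteins of many compartments, comprised 10 that were lower, 5 higher and 5 not called, with a median log2 fold change of -0.40. No test compared these counts with the 38.8% of all genes that were lower. Dnajc16 was the most changed of the Dnajc genes. It measured 625.1, 671 and 565 in mice 1 to 3, 72.5, 91.6 and 41.7 in ssNM-R 2, 3 and 6, and 76.3, 90.3 and 81.5 in lsNM-R 1, 4 and 5. The highest NM-R was far below the lowest mouse (-3.06 ± 0.22 (SE), adjusted p = 7.07e-07). The ER membrane protein Dnajc1 (-1.62 ± 0.13 (SE), adjusted p = 1.39e-06) and Dnajc15 of the mitochondrial inner membrane (-1.36 ± 0.17 (SE), adjusted p = 3.95e-05) were lower in all NM-Rs than in any mouse. Dnajc7, which links HSP70 and HSP90, was lower as well (-0.83 ± 0.07 (SE), adjusted p = 3.51e-06), with 1973 to 2587 in NM-Rs against 3934 to 4136 in mice. On the other side, Dnajc4 measured 197, 205 and 189 in mice 1 to 3, 532, 570.5 and 680.0 in ssNM-R 2, 3 and 6, and 554, 542 and 569 in lsNM-R 1, 4 and 5. All NM-Rs were above all mice (1.54 ± 0.10 (SE), adjusted p = 3.42e-07), and Dnajc17 (0.91 ± 0.11 (SE), adjusted p = 3.79e-05) and Dnajc25 (0.62 ± 0.14 (SE), adjusted p = 0.002) were higher too. Among the rest, Dnajc5, Dnajc10, Dnajc18, Dnajc19, Dnajc27 and Dnajc28 were lower, and Dnajc9 and Dnajc22 were higher, of which Dnajc9 lost its call without any one of several spleens, mouse 1 and lsNM-R 4 among them.

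The partners of HSP90 and HSP70 were described from lists of known genes, to be read beside the 39.7% of all genes that were higher and the 38.8% that were lower. Of 10 genes listed with HSP90, 5 were higher in NM-Rs and 3 lower, and 1 of the 3 is Trap1, an HSP90 and not a co-chaperone. Ptges3 (p23), which holds HSP90 closed, had a log2 fold change of 2.06 (adjusted p = 3.46e-07) and Fkbp4 one of 1.05 (adjusted p = 4.03e-05), whereas Cdc37, which brings kinases to HSP90, was at -1.03 (adjusted p = 1.01e-06). Of 7 HSP70 partners, the ubiquitin ligase Stub1 was higher (0.97, adjusted p = 2.31e-06) and 4 were lower, among them Sil1, the exchange factor of Hspa5 (-1.44, adjusted p = 1.8e-06). Of 8 mitochondrial proteases and unfoldases 3 were higher and 0 lower, and of 7 genes of disaggregation and stress 3 were higher and 1 lower.

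Between lsNM-R and ssNM-R spleens, 0 of the 62 genes passed the test in limma, as did 0 of all 12946 genes (background 0%), and the smallest adjusted p among the 62 was 0.442. At an unadjusted p under 0.05 there were 4 genes (6.45%, against 8.79% of all genes). DESeq2 and edgeR on the recovered reads also called 0 of the 62, where edgeR called 0 of all genes and DESeq2 called 54 of all genes (0.417%), and each tool had 4 of the 62 at an unadjusted p under 0.05 (8.63% of all genes in DESeq2 and 8.54% in edgeR). The cohorts did not overlap for 10 genes (16.1%, against 13.1% of all genes). The 95% interval of a difference had a median half-width of 0.36 on the log2 scale, a 1.28-fold change. For Hsp90ab1 the difference was 0.00 (interval -0.31 to 0.32), for Hsp90b1 -0.10 (-0.36 to 0.17), for Hspa5 0.03 (-0.22 to 0.28) and for Hsf1 -0.14 (-0.33 to 0.06). Hsph1, at 0.39, had an interval of -0.38 to 1.16.

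The 5 smallest unadjusted p belonged to J-domain genes. Dnajc10, an ER disulfide reductase that works with Hspa5, measured 1376, 1340.3 and 1406 in mice 1 to 3, 822, 805 and 945 in ssNM-R 2, 3 and 6, and 1092, 1030.2 and 1171 in lsNM-R 1, 4 and 5. Every lsNM-R was above every ssNM-R and below every mouse, and the difference was 0.36 (adjusted p = 0.442). Dnajc28 differed by 0.60 (adjusted p = 0.488), Dnajb14 by 0.39 (adjusted p = 0.521), Dnajc7 by -0.22 (adjusted p = 0.534) and Dnajc13, an endosomal protein, by 0.24 (adjusted p = 0.569). None of these passed the test. The cohorts did not overlap for any of the 5, but the genes were picked by their p in this same comparison, so this adds no separate evidence.

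Single spleens stood apart for several genes. lsNM-R 4 had the highest level of the 6 NM-Rs for 21 genes (33.9%, against 17.3% of all genes). It was 2.22 times the mean of the other NM-Rs for Hsph1, a higher ratio than 99.9% of 9601 genes showed, 1.70 times for Dnaja1 and for Hspa4l, 1.57 times for Dnajc28, 1.53 times for Dnaja4, 1.52 times for Dnajb1, 1.49 times for Dnajc6, 1.42 times for Dnajc18 and 1.41 times for Dnajb4. Other genes differed: Hspb1 was lowest of the NM-Rs there, at 0.515 times the mean of the others, Hspb8 was at 0.984 times and Bag3 at 1.14 times. The HSP90 co-chaperone Stip1, which is not one of the 62, was at 3268 in lsNM-R 4 and at 1297 to 1790.0 in the other NM-Rs, and 6 of the 10 genes listed with HSP90 were highest there. This spleen came from the only female, and its sum over 14 immediate early genes, 7861, was the lowest of the NM-Rs (7977 to 16463 in the others). Among mice, mouse 1 was lowest for 28 genes (45.2%, against 34.0% of all genes), and the mean of the other mice was 1.94 times its level for Dnajb2, 1.71 times for Hsph1, Dnaja4 and Dnajb1, and 1.66 times for Dnajb4. lsNM-R 1, of the same cohort as lsNM-R 4, was lowest of the NM-Rs for 17 genes (27.4%, against 14.6% of all genes). The part of the marker values given above for mouse 1 and lsNM-R 4 was not tested.

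**Figure D4:**
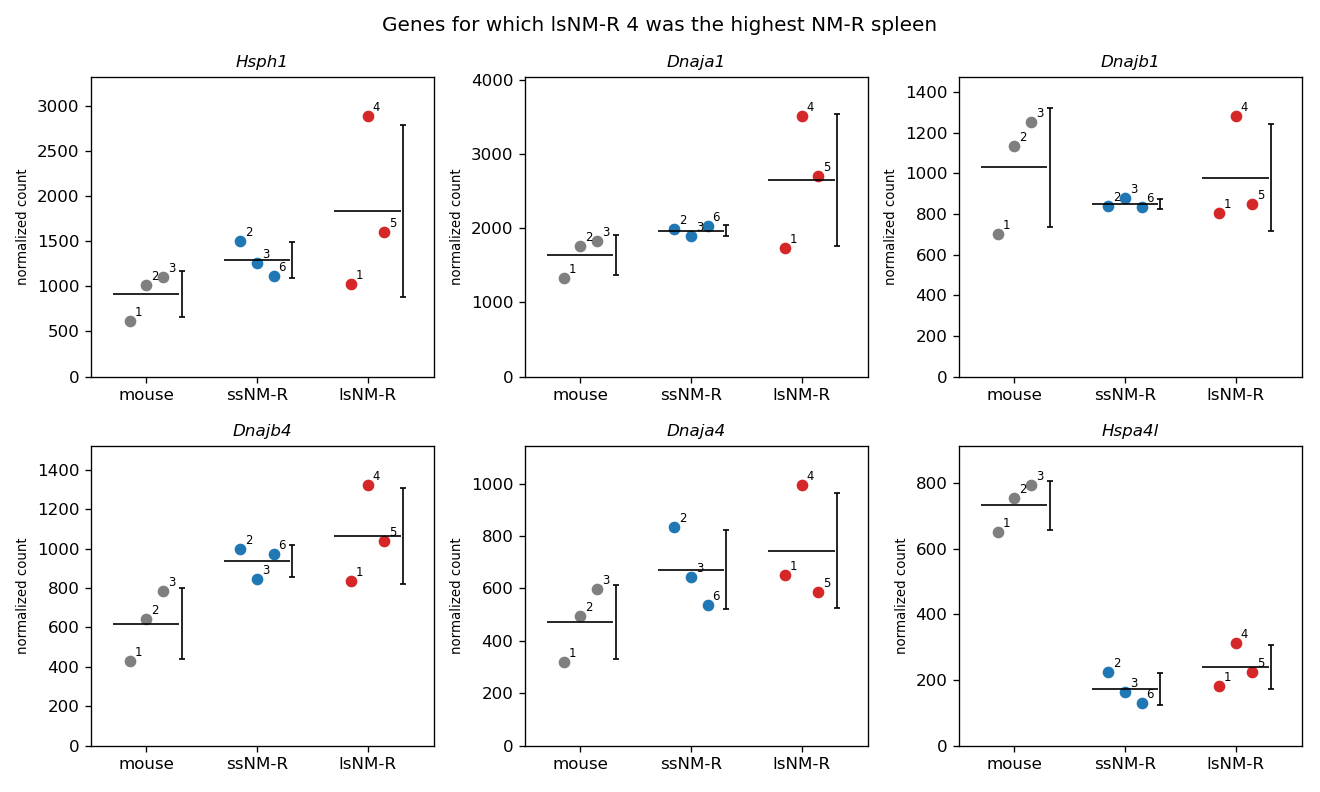
Normalized counts in each spleen for 6 genes for which lsNM-R 4 was the highest NM-R; numbers name the spleens, horizontal lines are group means and bars are the SD (n = 3 per group). lsNM-R 4 reaches 2884 for Hsph1, against 1602 in the next NM-R, and mouse 1 is the lowest mouse in each panel.

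**Figure D5:**
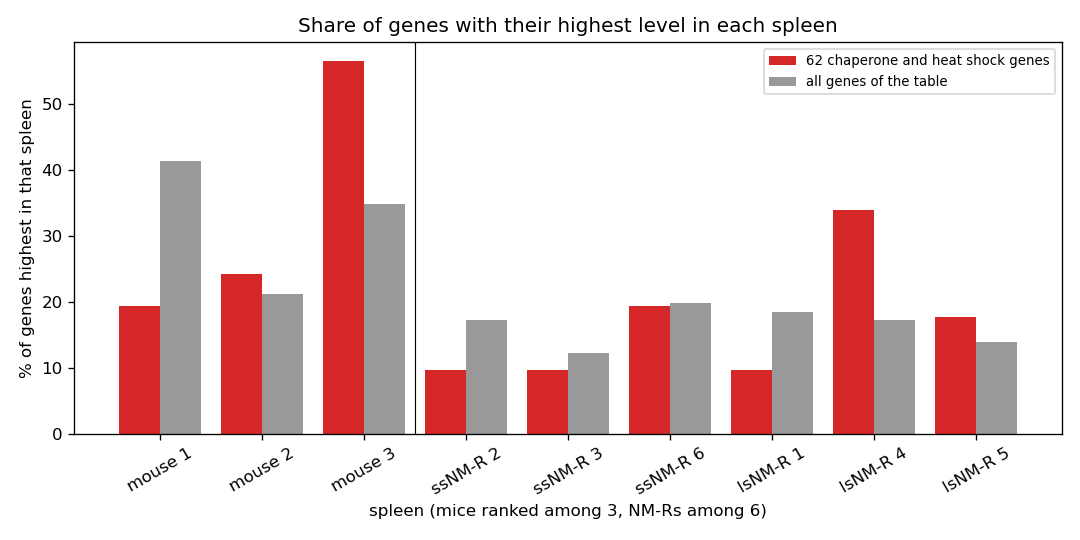
Percent of genes whose highest level among the 3 mice, or among the 6 NM-Rs, lies in the named spleen, for the 62 chaperone genes (red) and for all genes of the table (grey). lsNM-R 4 holds 33.9% of the chaperone genes against 17.3% of all genes, and mouse 3 holds 56.5% against 34.8%.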

How the data were processed

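RNA-seq covered 9 spleens in 3 groups of 3, and groups were taken from the sample labels. The signal values of the deposited table are read counts that the authors had scaled by a DESeq2 size factor per spleen, computed over both species. According to the methods, reads were aligned with STAR 2.5.3a to mm9 or to the NM-R genome and counted with htseq-count 0.10.0, and NM-R genes were given mouse homologue names. Whether counting used strand is not given in the sources used here. In the mouse annotation, exons of Dnaja1, Dnaja4, Dnajc1, Dnajc7, Dnajc17, Dnajc19 and Hspb6, among others, overlap a gene on the other strand. Exons of Hsp90b1, Dnaja1, Dnaja3 and Dnajc25 overlap another annotated gene on the same strand. The part of these overlaps in the values was not tested. The labels and the methods name different instruments, library types and kit makers.

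Dividing each library's values by its smallest step returned whole numbers for 100% of them (tolerance 0.0001), that is 7815326 to 18387599 reads per library. Values were fitted as log2(normalized count + 1) in limma 3.58.1 (R 4.3.3), with 1 mean per group over all 9 spleens, a variance trend, 2-sided tests and Benjamini-Hochberg adjustment over 12946 genes, at a threshold of 0.05. NM-R stands for the mean of both cohorts. On simulated reads of 12946 genes for lsNM-R against ssNM-R, changes were set in 66 or 67 genes per fold, drawn from genes above a minimum mean. The fit found 7.5% of the 1.5-fold, 53.7% of the 2-fold and 98.5% of the 4-fold changes. All genes were simulated at 1 fixed dispersion that was not estimated from these spleens. The shares therefore do not give the power of the real comparison. Families other than Dnaj are named in full, and of each Dnaj family the 3 highest and 3 lowest called changes with a mean of 50 in either species, and the gene with the highest mean; from the lsNM-R to ssNM-R comparison the 5 smallest p. Other genes named were chosen after their values were seen. The genes and lists were chosen with earlier results of these data known. edgeR 4.0.16 and DESeq2 1.42.0 were run on the recovered reads as alternatives, beside other scalings, filters, pseudocounts, leaving out spleens and a replicate block. Between the cohorts, a term for shallow or deep libraries was also fitted. Promoter windows were read from the mm9 genome, and copies were searched with minimap2.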

Additional observations from a re-analysis of the deposited data

Results flagged for a closer look

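Among the 6 NM-R spleens, 8 of the 62 genes (12.9%) had 1 spleen so far above the other 5 that its gap exceeded the 95% limit of Dixon's test, a test for a single outlying value, against 6.44% of the whole table. Chance alone gives about 1 in 20 groups such a value at either end. At the bottom there was 1 gene (1.61%, against 1.59%). lsNM-R 4 was the spleen for Hsph1, the HSP110 gene, at 2884.04 normalized counts with the next NM-R at 1602, and for the HSP40 gene Dnajb1, at 1280.54 with the next at 878. ssNM-R 6 was the spleen for Dnajc4, at 679.972 with the next at 570.5, and for Dnajc1, at 260.361 with the next at 207. ssNM-R 2 was the spleen for the transport gene Hspb11, at 615.36 with the next at 352, and for Hspa1l, at 8.2048 with the next at 3.79, a gene with 27 reads in all 6 NM-Rs. lsNM-R 1 was the spleen for Dnajc5, at 2176.5 with the next at 1863. The eighth gene, Dnajb7, had its single NM-R read in lsNM-R 4. The low value was that of Dnajb12 in lsNM-R 5, at 728.66 with the next at 868. lsNM-R 4 came from the only female and had among the highest erythroid marker sums of the NM-Rs (183727, after ssNM-R 2 with 193792). The part of either in its Hsph1 and Dnajb1 levels was not tested.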

How the results depend on the processing

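The 61 results gave 1361 alternative values. Counts of genes called between NM-R and mouse stayed within 1.5 times the reported ones under every alternative run (19 to 29 higher, 19 to 22 lower). The replicate block gave 14 genes higher in ssNM-R and 13 in lsNM-R against mouse. The numbers do not pair the animals, since same-numbered spleens of mouse and NM-R correlated at 0.01, -0.005 and 0.001 in their deviations and were not the best match of each other, and the block fits fewer residual degrees of freedom. In NM-R against mouse it lost 9 calls, among them Hsp90ab1 (0.57), Hsp90b1 (0.33), Hspa5 (0.32), Hspa13 (0.28) and Hspa4 (0.21), whose log2 fold changes kept their direction. The cause was not tested. Of the 49 genes that the rule for naming genes picked, 31 kept their direction and call between the species under every alternative that fitted them. Hsf5, Hspb2 and Hspa1l, which are among these, were not fitted where a mean of at least 10 was required. Genes named outside that rule, such as Dnajc9, are not in this count. Leaving out 1 spleen at a time gave Dnajb1 log2 fold changes from -0.402 without mouse 1 to 0.0169 without mouse 3, the only change of sign among them. Between the cohorts Dnajb14 was -0.0399 under the replicate block. Scaling to the same upper quartile moved the median of all genes to 0.10 and gave 29 higher and 19 lower, and scaling to the same total gave 23 and 22. Between lsNM-R and ssNM-R 0 of the 62 genes were called under any alternative. DESeq2 called 54 of all genes there with its default filtering and 57 with filtering tuned to 0.05. That second setting, and the fit without mouse 1 and lsNM-R 4, were chosen after seeing the data. Fitting the compared groups alone gives no separate value for NM-R against mouse. Genes with 3 reads or fewer in every spleen of a species are limited by depth.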
